A study of Mus musculus with 38 samples.

Results

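DNA replication genes are described here as a set of 41 protein-coding mouse genes, chosen by symbol and matched to the Ensembl gene identifiers of the count tables, out of 55487 genes measured. By role they comprise 10 genes of helicase loading (Orc1, Orc6, Cdc6, Cdt1 and Mcm2 to Mcm7), 6 of helicase activation (Mcm10, Cdc45 and Gins1 to Gins4), 6 polymerase and primase subunits (Pola1, Pola2, Prim1, Prim2, Pold1, Pole), the sliding clamp Pcna with its 5 loader subunits (Rfc1 to Rfc5), 4 enzymes of nucleotide supply (Rrm1, Rrm2, Tyms, Tk1), 5 genes of single-stranded DNA binding and Okazaki fragment joining (Rpa1, Rpa2, Rpa3, Fen1, Lig1), 3 of chromatin assembly and maintenance (Chaf1a, Chaf1b, Uhrf1) and the transcription factor E2f1. All 41 passed the filter on low counts in the tumors and in the cell lines.

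A cell prepares to copy its genome in G1 by loading the ring-shaped MCM helicase onto origins marked by the origin recognition complex, with the help of CDC6 and CDT1. At the start of S phase MCM10, CDC45 and the GINS complex turn the loaded ring into an active helicase, primase and polymerase alpha begin each strand, and polymerases delta and epsilon extend it while held by the PCNA ring. RNA of many of these genes is made in a burst around the G1 to S transition under the control of E2F factors, and is scarce in cells that have left the cycle, so their level in bulk tissue is widely read as a sign of cycling cells. Carboplatin cross-links DNA and paclitaxel stabilizes microtubules, so both act on cells that replicate or divide.

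RNA-seq libraries came from omental tumors of 2 syngeneic mouse models of high-grade serous ovarian cancer and from the 2 cell lines that were injected to make them. The 60577 cells were grown in FVB mice and the HGS2 cells in C57BL/6J mice, all wild-type females injected into the peritoneum at 8 to 9 weeks of age. Treated mice received carboplatin at 20 mg/kg together with paclitaxel at 10 mg/kg, once a week for 3 doses, from day 21 (60577) or day 49 (HGS2) after injection, and control mice received vehicle. Tumors were taken 1 day (TP1), 7 days (TP2) or 21 days (TP3) after the last dose. There were 3 control and 3 treated 60577 tumors at TP1, 3 and 4 at TP2, and 4 treated at TP3. For HGS2 there were 3 and 3 at TP1, 4 and 3 at TP2, and 4 treated at TP3. Each cell line had 2 untreated libraries. TP3 had no controls of its own, so its treated tumors were set against those of TP2, and there treatment and time cannot be told apart. Each model is 1 injected line in 1 mouse strain with its own schedule, so line, strain and schedule cannot be told apart between the models. The mutations carried by the lines are not given in the sources used here.

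Total counts per library ran from 17839635 to 49299442 in the 34 tumors and from 31633121 to 42461995 in the 4 cell line libraries, and no 2 libraries of a group agreed within sampling noise. HGS2 TP3 treated replicate 1, which the study's own sample list leaves out, was kept out of the fits, so HGS2 TP3 values below rest on 3 tumors unless all 4 are given. The labels call the tissue tumor. The epithelial markers Epcam, Krt7, Krt8, Krt18, Krt19 and Cdh1 were detected in all 60577 tumors, whereas Pax8 stayed below 1 CPM (counts scaled to a common library size) in every library and Cldn4 was listed at 0 in both HGS2 cell line libraries. The 9 epithelial markers summed to 205 to 2887 CPM in 60577 tumors and to 21.1 to 792 CPM in HGS2 tumors. Pancreatic acinar markers exceeded 10000 CPM in 3 HGS2 tumors (TP1 control replicate 3, TP2 control replicate 2 and TP3 treated replicate 2). The share of counts on 7SL RNA varied from 1.93% to 26.5% among the 60577 tumors and from 3.07% to 20.9% among the HGS2 tumors. In 60577 it was 3.59% to 4.91% in TP1 controls and 7.87% to 15.4% in TP1 treated tumors. At TP2 it was 2.91% to 14.1% in 60577 controls and 9.38% to 26.5% in treated tumors. In bulk tissue, fewer cycling cells and less replication RNA per cell cannot be told apart.

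Within the control 60577 tumors the 41 genes spanned a wide range of levels. On a per-length scale (TPM, scaled for gene length and used here only to rank genes within a group) Pcna led in every group of tumors and cell lines. In 60577 TP1 controls it averaged 173 TPM, followed by the helicase subunits Mcm6 (105 TPM), Mcm7 (94.4 TPM) and Mcm3 (83.7 TPM). The lowest were Orc1, the largest subunit of the origin recognition complex, at 5.48 TPM and Mcm10 at 5.81 TPM. In HGS2 controls Rrm2, the regulated subunit of ribonucleotide reductase, stood 4th at TP1 (36.2 TPM) and 2nd at TP2 (40.4 TPM).

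The summed level of the 41 genes, in CPM scaled by the trimmed mean of M-values (TMM), separated treated from control tumors in 60577 and not in HGS2. In 60577 the 3 TP1 controls held 2409.7 to 2489.7 CPM and the 3 TP2 controls 2344 to 2565 CPM. The treated tumors held 948 to 1075 CPM at TP1, 731 to 934 CPM at TP2 and 621 to 804 CPM at TP3, so that no treated tumor reached the level of any control. In HGS2 the TP1 controls held 819.7, 1369.7 and 2378 CPM against 917, 1388 and 1679 CPM in treated tumors. At TP2 the controls held 1139 to 1809.5 CPM and the treated tumors 1365 to 1399.9 CPM, inside the range of the controls. The 60577 cell line held 5058 and 5078 CPM, above every tumor, and the HGS2 cell line 1722 and 3964 CPM.

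**Figure D1:**
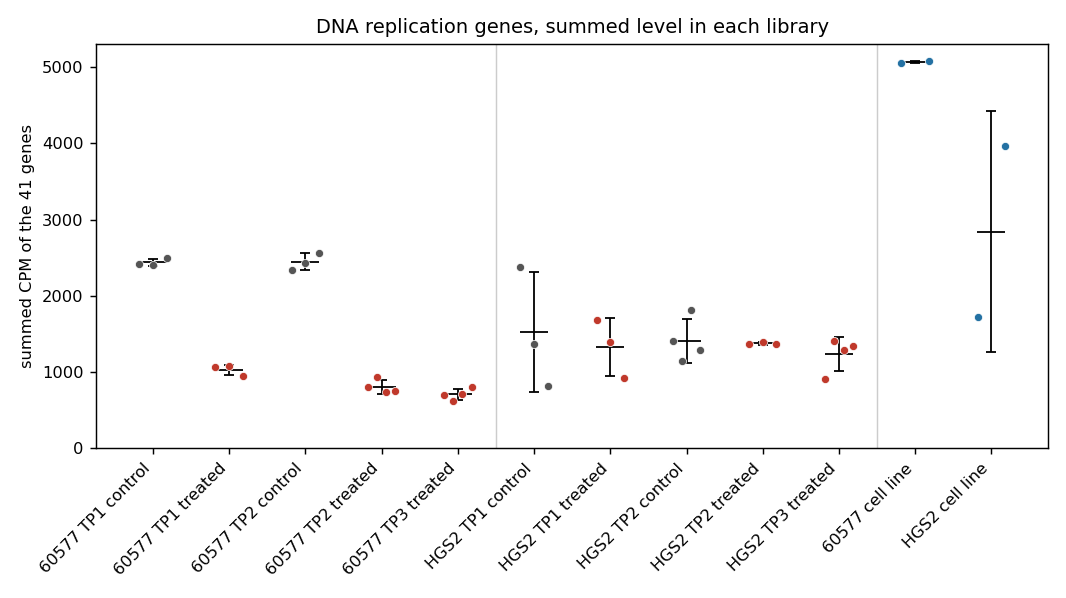
Summed TMM-scaled CPM of the 41 replication genes in each library (points), with the group mean and SD (bars), by model, time point and treatment. The 60577 treated tumors sit between 621 and 1075 CPM, below all 60577 controls (2344 to 2565 CPM), whereas treated and control HGS2 tumors overlap.

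In 60577 tumors replication genes fell after chemotherapy at each time point. At TP1 40 of 41 were lower, where 33.3% of all 16241 genes tested changed in either direction and 16.2% fell (adjusted p below 0.05, edgeR quasi-likelihood test). At TP2 40 of 41 fell against a background of 58.4% called and 29.2% lower, and at TP3 all 41 fell against 51.4% called and 26% lower. The median log2 fold change of the members was -1.22 at TP1, -1.68 at TP2 and -1.76 at TP3, beside -0.002, 0.03 and -0.0004 over all genes tested. Falls of more than 1 on the log2 scale were called for 29, 33 and 35 members, a class that held 5.96%, 9.61% and 10.2% of all genes. TP2 and TP3 share their controls, so they are not independent.

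Helicase loading genes had the lowest medians after the chromatin genes, at -1.50, -2.04 and -2.26 for TP1, TP2 and TP3, and all 10 fell at each time point. Mcm6, a subunit of the helicase ring, stood at 165, 192 and 187 CPM in TP1 controls and at 47.9, 55.4 and 40.7 CPM in TP1 treated tumors. At TP2 its controls held 169, 185 and 204 CPM and the treated tumors 29.1, 41.2, 26.4 and 22.9 CPM, and at TP3 the treated tumors held 23.0, 19.0, 21.8 and 30.5 CPM. Every treated tumor lay below every control by a wide gap. The log2 fold changes of Mcm6 were -1.92 (SE 0.20), -2.65 (SE 0.19) and -2.98 (SE 0.19), with edgeR adjusted p = 1.9e-05, 2.9e-07 and 2.9e-08.

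The other ring subunits moved with Mcm6, since Mcm2, Mcm3, Mcm4, Mcm5 and Mcm7 fell by 1.33 to 1.59 on the log2 scale at TP1, by 1.73 to 2.13 at TP2 and by 1.69 to 2.54 at TP3. Among the loaders, Cdc6 stood at 18.3, 20.5 and 16.98 CPM in TP2 controls and at 2.93, 4.46, 3.32 and 3.63 CPM in TP2 treated tumors. At TP3 it was at 2.98, 2.32, 2.51 and 2.56 CPM. Its log2 fold changes were -1.47, -2.39 and -2.84 (SE 0.16, 0.15 and 0.15). Cdt1, its partner in loading, fell by 1.40, 2.01 and 2.30 on the log2 scale.

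Orc1 was low but clearly separated, with 5.35 to 7.19 CPM over the 6 controls (median 6.80 CPM). TP1 treated tumors held 1.93, 2.29 and 1.81 CPM and TP3 treated tumors 1.22, 0.629, 0.739 and 0.872 CPM. The fold changes of Orc1 were -1.81, -1.99 and -2.83 (SE 0.22, 0.20 and 0.21, log2). Orc6, another subunit of the origin recognition complex, changed least in this role, with -0.92, -0.85 and -1.08 on the log2 scale.

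Helicase activation genes had medians of -1.05, -1.62 and -1.99, and held the only members that missed the threshold. Mcm10, which is needed to start unwinding, was at 15.1, 16.8 and 12.4 CPM in TP2 controls, at 3.46, 5.77, 4.44 and 4.87 CPM in TP2 treated tumors and at 2.69, 1.62, 1.67 and 2.10 CPM at TP3. Its level was thus lowest 21 days after the last dose, with log2 fold changes of -1.19, -1.68 and -2.86 (SE 0.20, 0.19 and 0.20). Cdc45 fell by 1.31, 1.79 and 2.00 on the log2 scale, Gins2 by 1.31, 2.06 and 2.29, and Gins1 by 0.91, 1.56 and 1.98.

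The 2 other GINS subunits, which form a fixed complex with Gins1 and Gins2 in the protein, had smaller changes in value. Gins4 was at 21.9, 21.1 and 24.007 CPM in TP1 controls and at 18.1, 19.0 and 15.3 CPM in TP1 treated tumors. That difference of -0.35 (SE 0.16, log2) missed the threshold at edgeR adjusted p = 0.11, whereas Gins4 fell by 0.79 at TP2 and by 0.57 at TP3. Gins3 was at 5.10, 4.26 and 5.63 CPM in TP2 controls and at 4.57, 4.82, 4.44 and 4.71 CPM in TP2 treated tumors, which overlapped. Its log2 fold change there was -0.12 (SE 0.15, edgeR adjusted p = 0.52), beside falls of 0.85 at TP1 and 0.45 at TP3. The difference in response between GINS subunits was not tested.

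Polymerase and primase genes had medians of -1.31, -1.09 and -1.51, and all 6 fell at each time point. Pola1, the catalytic subunit of polymerase alpha, was at 76.6, 77.2 and 84.7 CPM in TP1 controls and at 30.5, 32.1 and 27.2 CPM in TP1 treated tumors. At TP2 it was at 63.3, 65.1 and 81.9 CPM against 32.6, 31.0, 33.4 and 33.2 CPM, and at TP3 at 25.8, 22.5, 27.5 and 25.5 CPM. The level of Pola1 in treated tumors was therefore similar at TP1 and TP2, with log2 fold changes of -1.40, -1.12 and -1.46 (SE 0.11, 0.10 and 0.10). Pole, the catalytic subunit of the leading-strand polymerase epsilon, went from -1.47 and -1.20 at TP1 and TP2 to -2.26 at TP3 (SE 0.22, 0.20 and 0.21). Pold1, its lagging-strand counterpart in polymerase delta, fell by 1.08, 0.75 and 1.22 on the log2 scale.

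Clamp and clamp loader genes had medians of -1.09, -1.44 and -1.46. Pcna, the clamp that tethers the polymerases and a common marker of proliferation, was at 158, 139.8 and 165 CPM in TP1 controls and at 84.7, 75.7 and 67.3 CPM in TP1 treated tumors. At TP2 the controls held 181, 208 and 176 CPM and the treated tumors 57.3, 51.3, 23.0 and 28.6 CPM, and replicates 3 and 4 were the lowest of all 60577 tumors and had the highest shares of 7SL RNA of their group (19.4% and 26.5%). At TP3 the treated tumors held 54.0, 58.7, 58.3 and 63.7 CPM. The log2 fold changes of Pcna were -1.02, -2.25 and -1.68 (SE 0.25, 0.24 and 0.23).

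The loader subunits split into Rfc3, Rfc4 and Rfc5, with falls of 1.15 to 1.39 on the log2 scale at TP1 and 1.19 to 1.74 at TP2, and Rfc1 and Rfc2, with falls of under 1 at each time point. Rfc1, the large subunit, showed the smallest change of all members at TP1 and TP3. It was at 60.6 to 69.3 CPM in the 6 controls (median 61.8 CPM), at 53.1, 54.9 and 47.8 CPM in TP1 treated tumors and at 50.4, 45.8, 47.6 and 56.2 CPM at TP3. These groups did not overlap, and the log2 fold changes were -0.29, -0.49 and -0.33 (SE 0.10, 0.09 and 0.09, edgeR adjusted p = 0.037, 0.00046 and 0.0077).

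Nucleotide supply genes had medians of -1.17, -1.60 and -2.11. Rrm2 was at 24.8, 24.5 and 28.4 CPM in TP1 controls and at 14.2, 13.0 and 11.2 CPM in TP1 treated tumors. At TP2 its controls held 27.7, 37.0 and 22.5 CPM and the treated tumors 6.10, 7.58, 5.03 and 5.51 CPM, and at TP3 the treated tumors held 4.77, 3.34, 4.501 and 5.38 CPM. The fall of Rrm2 thus went from 1.01 (SE 0.20) to 2.28 (SE 0.19) and 2.69 (SE 0.19) on the log2 scale. Rrm1, the large subunit of the same reductase, fell by 0.98, 1.18 and 1.27, and was at 138 to 177 CPM in controls against 55.6 to 69.7 CPM at TP3. Tk1, which salvages thymidine, fell by 1.57, 1.63 and 2.46 on the log2 scale, and Tyms, which makes thymidylate, by 1.33, 1.57 and 1.76.

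Single-stranded DNA binding and Okazaki fragment genes had the smallest median at TP1 and TP3 among the roles of several genes (-0.94, -1.30 and -1.06), and all 5 fell. Rpa1, the large subunit of replication protein A, which also serves DNA repair, was at 73.0 to 84.2 CPM in the 6 controls (median 81.0 CPM) and at 48.3 to 57.9 CPM, 35.8 to 53.1 CPM and 50.3 to 58.6 CPM in treated tumors of TP1, TP2 and TP3. Its log2 fold changes were -0.53, -0.88 and -0.62 (SE 0.12 each). Fen1, the flap nuclease that trims Okazaki fragments, fell by 1.14, 1.81 and 2.02, and Lig1, the ligase that joins them, by 0.99, 1.298 and 1.63 on the log2 scale.

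Chromatin genes had the lowest medians of all roles, at -1.59, -2.33 and -2.95. Uhrf1, which brings the maintenance DNA methyltransferase to newly copied DNA, was at 118, 111 and 127 CPM in TP1 controls and at 39.3, 38.5 and 36.9 CPM in TP1 treated tumors. At TP2 it was at 120.0, 116 and 119 CPM against 22.5, 24.4, 19.8 and 20.8 CPM, and at TP3 at 13.8, 13.8, 13.8 and 19.6 CPM. Replicate 4 stood above the other TP3 tumors, but no treated tumor reached a control. The log2 fold changes of -1.63, -2.45 and -2.95 (SE 0.13, 0.12 and 0.12) carried the lowest adjusted p of the set at TP2 and TP3 (edgeR, 2.5e-08 and 1.6e-09). Chaf1b, a subunit of the histone chaperone CAF-1, had the lowest log2 fold change of the set at TP3, -3.01 (SE 0.23), and Chaf1a, its partner, fell by 1.57, 1.81 and 2.58. E2f1, an activator of many of these genes, was at 40.4 to 46.3 CPM in the 6 controls and fell by 0.87, 1.36 and 1.81 on the log2 scale (SE 0.11 each).

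**Figure D2:**
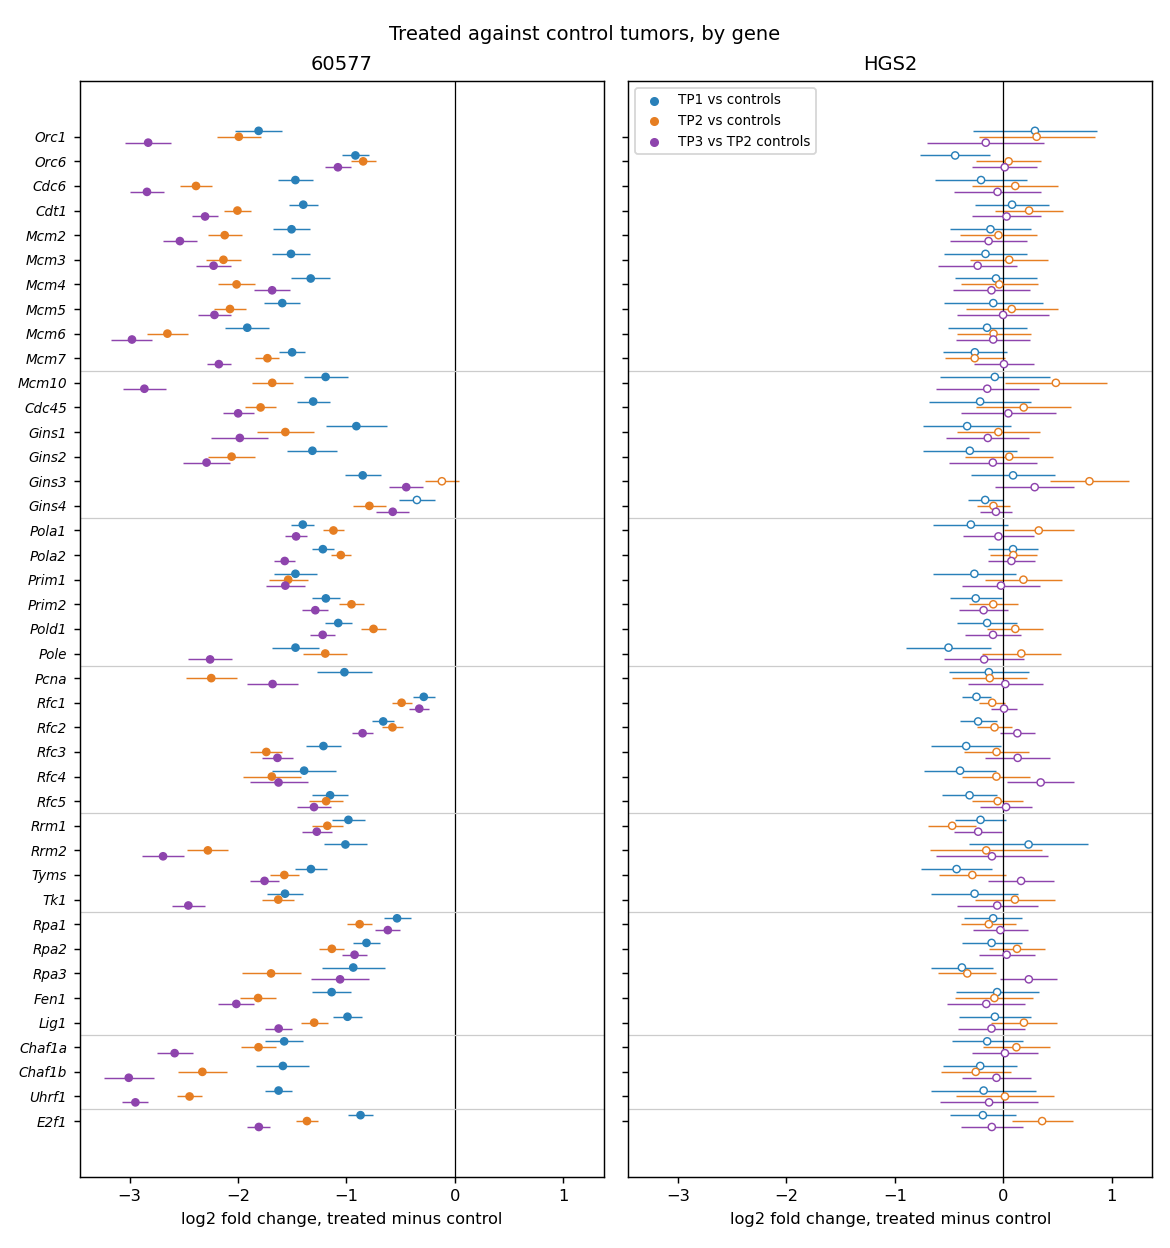
Log2 fold change of each of the 41 genes (points) with its SE (bars) in 60577 (left) and HGS2 (right) at TP1, TP2 and TP3, treated minus control, with filled points for adjusted p below 0.05. In 60577 all points but Gins4 at TP1 and Gins3 at TP2 are filled and lie below 0, and in HGS2 every point is open.

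**Figure D3:**
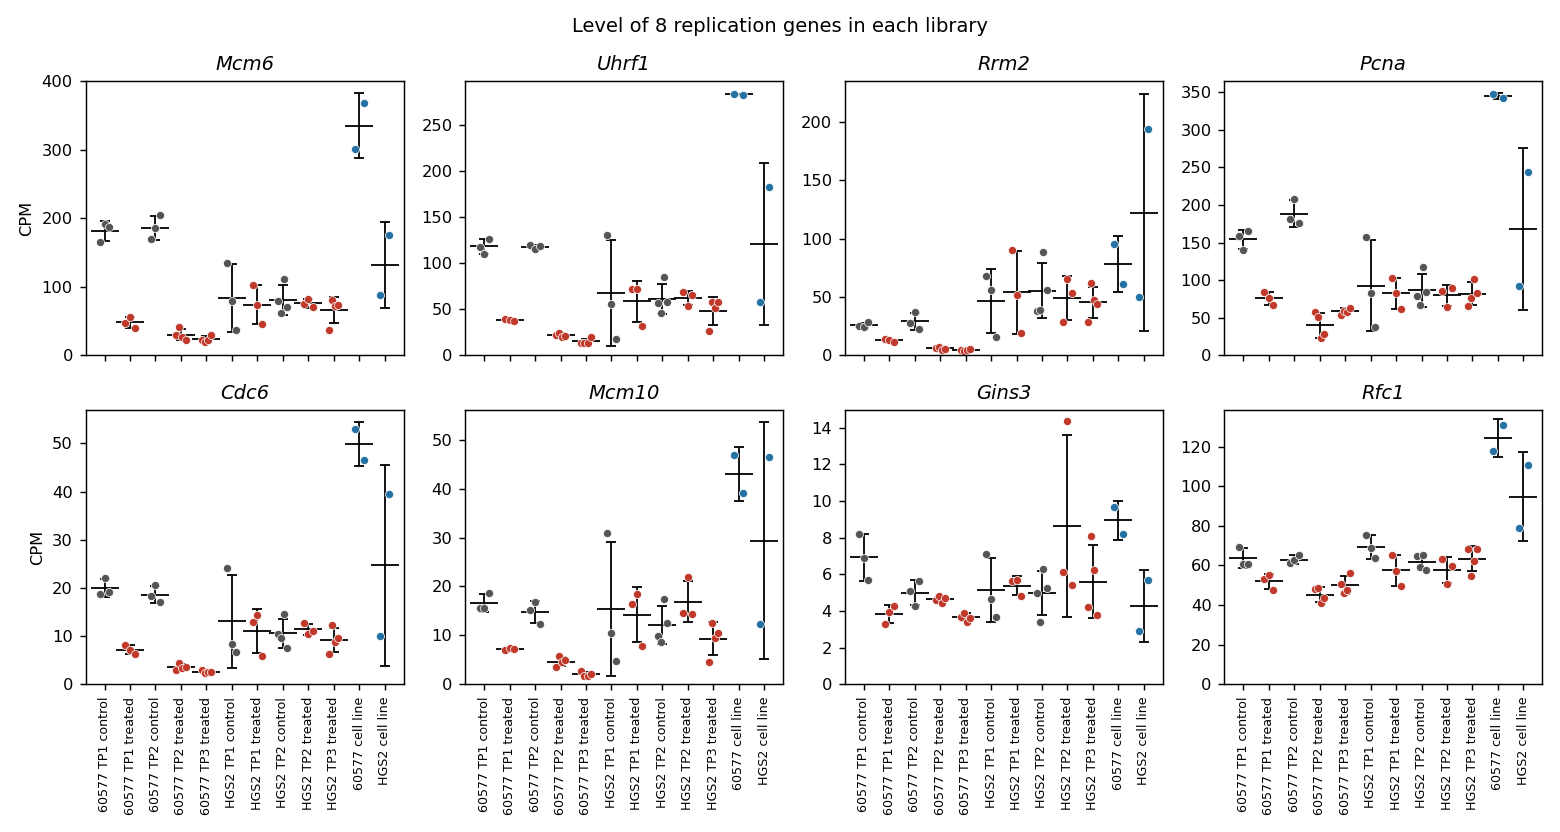
CPM of 8 replication genes in each library (points), with group mean and SD, in control tumors (grey), treated tumors (red) and cell lines (blue). Mcm6, Uhrf1, Rrm2, Pcna, Cdc6 and Mcm10 fall in treated 60577 tumors, Gins3 falls at TP1 and TP3 and overlaps at TP2, Rfc1 has small falls, and HGS2 tumors overlap between treatments in every panel.

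Some members fell further between time points among treated 60577 tumors. From TP1 to TP2, 15 of 41 fell (background 19.3% called, 9.86% lower, median of members -0.37 log2), among them 6 of 10 helicase loading genes and 0 of 6 polymerase and primase genes. Rrm2 and Cdc6 changed most, by -1.09 (SE 0.19) and -1.01 (SE 0.15), followed by Pcna (-0.93, SE 0.23). From TP2 to TP3, 17 of 41 fell (background 35% called, 18.8% lower, median -0.30), among them 5 of 6 polymerase and primase genes and all 3 chromatin genes. Mcm10 (-1.18, SE 0.19) and Pole (-1.06, SE 0.19) changed most. The 2 intervals share the TP2 treated tumors, and the difference between them by role was not tested.

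Of the 41 members, 32 lay below 0 from TP2 to TP3, and those above 0 did not pass the test. Pcna differed by 0.57 (SE 0.22, edgeR adjusted p = 0.055) and Rpa3, the smallest subunit of replication protein A, by 0.64 (SE 0.26, adjusted p = 0.064). The counts for these intervals moved with single tumors and with the design of the fit. From TP1 to TP2 the count was 5 without TP1 treated replicate 1, 9 without TP1 treated replicate 2, 8 without TP2 treated replicate 3 and 6 without TP2 treated replicate 4. It was 8 with the replicate number as a block, 3 with only these tumors in the fit and 0 with both models in 1 fit. From TP2 to TP3 it was 11 without TP3 treated replicate 2, and 5 with both models in 1 fit. The share of counts on 7SL RNA ran from 9.38% to 26.5% in TP2 treated and from 1.93% to 5.89% in TP3 treated tumors. With it as a covariate 0 members passed from TP2 to TP3, but only 15 of all genes did, against 5677 without it, and the members' median was -0.39 (median SE 0.23, 35 of 41 below 0) against -0.30 (median SE 0.14). Between control tumors of TP1 and TP2 no member passed (0 of 41 and 0% of all genes by edgeR, with 1 member and 1501 genes at an unadjusted p below 0.05).

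Markers of other cells changed with treatment in 60577 at the same time. The summed epithelial markers went from 1575 to 2887 CPM in controls to 324 to 633 CPM at TP1, 303 to 585 CPM at TP2 and 205 to 326 CPM at TP3. Of the 7 tested, 6, 7 and 7 fell, with medians of -1.84, -2.42 and -2.69, where 16.2%, 29.2% and 26% of all genes were lower. The 5 mesothelial markers held 1881 to 2522 CPM in controls and 584 to 1328 CPM in treated tumors. The 60577 cell line itself held 3608 and 3921 CPM of these mesothelial markers. Adipocyte markers summed to at most 16.7 CPM in controls and to 1152 to 1686 CPM at TP3, and B cell markers to at most 22.0 CPM and to 289 to 381 CPM. Fibroblast markers summed to 5706 to 9932 CPM in controls and to 17308 to 27205 CPM at TP1, 7916 to 11926 CPM at TP2 and 8712 to 9420.2 CPM at TP3, and T cell markers to at most 23.98 CPM in controls and to 62.7 to 128 CPM at TP2 and 107 to 127 CPM at TP3. Several cell type lists thus moved beside the lower replication RNA, and their part in it was not tested.

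With the epithelial marker level as a covariate, 6 members passed at TP1 (Cdt1, Mcm7, Pola1, Pola2, Prim2 and Uhrf1), 0 at TP2 and 1 at TP3 (Uhrf1). In the same fits only 231, 0 and 8 of all 16241 genes passed, and the epithelial level did not overlap between treated and control tumors. The median log2 fold changes of the members were then -0.78, -1.05 and -1.17, with median SE of 0.26, 0.35 and 0.40, and 39, 39 and 36 of 41 were below 0. Gins4 and Rpa3 turned above 0 at all 3 time points, and Rfc1, Rfc4 and Rpa1 at TP3. At an unadjusted p below 0.05 the counts were 29, 26 and 26. How much of the fall in replication RNA goes with the fall in tumor cell RNA was not tested beyond these fits.

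**Figure D4:**
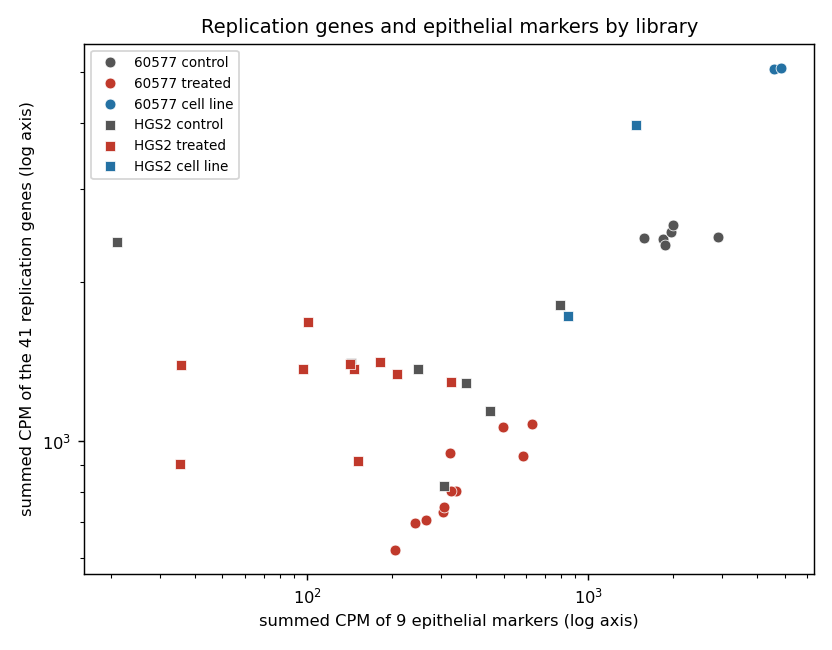
Summed CPM of the 41 replication genes against the summed CPM of 9 epithelial markers in each library, both on log axes, by model (circles 60577, squares HGS2) and group (colors). In 60577 the treated tumors lie below and to the left of the controls, whereas HGS2 tumors spread over 21.1 to 792 CPM of epithelial markers with treated and control tumors mixed.

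Because the members moved together in 60577, their promoters were searched for short motifs. RefSeq windows from 250 bases before to 50 after the annotated start (GRCm38.p6) were at hand for 34 of the 41 genes. The E2F-type letters TTTCCCGC, TTTCGCGC, TTTGCCGC and TTTGGCGC, searched on both strands, were in the windows of 13 of 34 member genes (38.2%) and of 2.605% of all 27025 genes with a window. The sequences below show such matches in 8 of these 13 members, chosen to cover helicase loading and activation, polymerase alpha and Uhrf1, each as a stretch of the gene's own strand with the matching letters, or their reverse complement, in capitals.
Mcm6, chr1:128359734-128359763, minus strand, 47 bases upstream: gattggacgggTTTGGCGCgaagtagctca
Mcm5, chr8:75109345-75109374, plus strand, 153 bases upstream: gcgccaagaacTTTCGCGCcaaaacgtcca
Mcm7, chr5:138172030-138172059, minus strand, 165 bases upstream: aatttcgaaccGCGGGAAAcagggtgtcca
Cdc6, chr11:98908002-98908031, plus strand, 138 bases upstream: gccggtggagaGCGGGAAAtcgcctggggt
Orc1, chr4:108579416-108579445, plus strand, 27 bases upstream: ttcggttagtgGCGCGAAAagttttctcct
Uhrf1, chr17:56304117-56304146, plus strand, 185 bases upstream: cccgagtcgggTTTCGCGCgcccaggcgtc
Pola1, chrX:93632275-93632304, minus strand, 138 bases upstream: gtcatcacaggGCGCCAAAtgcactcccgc
Gins3, chr8:95633507-95633536, plus strand, 41 bases upstream: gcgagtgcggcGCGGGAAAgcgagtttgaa

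Gins3 is shown because its window also holds a match although it changed least at TP2. Across the 13 members with a match the median log2 fold changes were -1.47, -1.99 and -2.22 at TP1, TP2 and TP3, and across the 21 with a window and no match -1.15, -1.63 and -1.68. Chaf1b, with the lowest fold change at TP3, Mcm10 and Rrm2 had a window and no match. CCAAT was in 22 of 34 member windows (64.7%, against 41.1% of all genes) and the GC box GGGCGG, which can share bases with an E2F-type match, in 26 (76.5% against 38.2%). The letters TTTGAA of the CHR element, typical of genes of G2 and mitosis, were in 4 of 34 (11.8% against 20.2%). A match is a string of letters and no proof of binding.

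In HGS2 tumors no member passed the test after chemotherapy. At TP1, TP2 and TP3 0 of 41 passed, as did 0% of all 16241 genes (edgeR quasi-likelihood test, adjusted p below 0.05). At an unadjusted p below 0.05 the counts were 0, 1 and 0 members and 413, 1233 and 406 genes, and DESeq2 and limma-voom called 0 members too. The median log2 fold changes of the members were -0.19, 0.02 and -0.05, and single members lay between -0.50 and 0.29 at TP1, between -0.47 and 0.80 at TP2 and between -0.24 and 0.35 at TP3. The median SE was 0.34, 0.32 and 0.32, against 0.16, 0.15 and 0.15 in 60577. A difference that misses the threshold with these errors does not show that the groups were alike. By edgeR 0 of 41 members and 0% of all genes passed between HGS2 treated tumors of TP1 and TP2, between those of TP2 and TP3, or between controls of TP1 and TP2, with 152, 1690 and 569 genes and 0 members under an unadjusted p of 0.05.

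Mcm6 was at 135, 78.8 and 36.7 CPM in HGS2 TP1 controls and at 102, 73.2 and 45.5 CPM in TP1 treated tumors. At TP2 the controls held 79.4, 62.3, 112 and 70.3 CPM and the treated tumors 75.5, 83.0 and 70.1 CPM. The groups overlapped, and the TP2 difference was -0.09 (SE 0.34, log2). All 4 TP3 tumors held 37.5, 80.6, 72.5 and 73.2 CPM, and the lowest is replicate 1, which the fit leaves out.

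Uhrf1 was at 131, 55.5 and 18.2 CPM in HGS2 TP1 controls, at 71.7, 71.7 and 32.5 CPM in TP1 treated tumors and at 68.7, 53.2 and 65.1 CPM in TP2 treated tumors. Pcna ran from 37.7 to 157 CPM over the 7 controls (median 83.3 CPM) and was at 85.1, 64.3 and 89.7 CPM in TP2 treated tumors. Rrm2 ran from 15.5 to 88.3 CPM over the controls (median 55.8 CPM) and was at 28.9, 65.7 and 53.6 CPM in TP2 treated tumors. All of these treated values lay inside the range of the 7 controls of TP1 and TP2. Against the TP2 controls alone, Rrm2 in TP2 treated replicate 1 lay below (28.9 CPM, controls 37.9 to 88.3 CPM). So did Pcna in TP2 treated replicate 2 (64.3 CPM, controls 66.6 to 117 CPM), whereas the other TP2 treated values of these genes lay inside. At TP2 the summed mesothelial markers were at 1809 to 2579.7 CPM in HGS2 controls and 510.2 to 836 CPM in treated tumors, and the epithelial markers at 144 to 792 CPM and 96.9 to 147 CPM, while 0 of 5 and 0 of 7 tested passed by edgeR. Their part in the replication levels was not tested. The 1 member under an unadjusted p of 0.05 at TP2 was Gins3 (0.80, SE 0.36, edgeR adjusted p = 0.65). Its treated tumors held 6.14, 14.4 and 5.40 CPM, so that 1 tumor stood far above the other two.

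The wide spread in HGS2 ran through the whole set. TP1 control replicate 1 held the highest summed level of any HGS2 tumor (2378 CPM) with the lowest epithelial marker level (21.1 CPM), and TP1 control replicate 3, with 56877 CPM of pancreatic acinar markers, held the lowest (819.7 CPM). Pola1, for example, was at 62.9, 30.3 and 21.7 CPM in these controls, and Pole at 78.3, 30.8 and 19.7 CPM. The 3 TP2 treated tumors were close to each other, at 1365 to 1399.9 CPM in sum. Without the 3 tumors rich in acinar markers 0 members passed in HGS2 as well. The parts of epithelial and acinar RNA in the spread were not tested.

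The difference in response between the models was tested in 1 fit of 33 tumors. At TP2 34 of 41 members had a higher log2 fold change in HGS2 than in 60577 (background 10.3% called, 6% higher), with a median difference of 1.67 beside -0.05 over all genes, and none had a lower one. Mcm6 differed by 2.55 (SE 0.41, edgeR adjusted p = 0.0028), Cdc6 by 2.49 (SE 0.44, 0.0037), Uhrf1 by 2.45 (SE 0.49, 0.0059), Orc1 by 2.28 (SE 0.58, 0.018) and Cdt1 by 2.23 (SE 0.35, 0.0028). The 7 that missed the threshold were Orc6, Gins3, Pold1, Rfc1, Rfc2, Rrm1 and Rpa1, with differences of 0.39 to 0.91. With 7SL RNA as a covariate 16 members and 360 of all genes passed, and with the epithelial markers 38 members and 2901 genes, against 34 and 1678. The members' median difference was 1.36 and 1.89 in these fits.

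At TP1 the difference passed for 3 members (background 1.77% called, 0.616% higher), with a median of 0.98 over the members and -0.03 over all genes. These were Mcm6 (1.74, SE 0.44, edgeR adjusted p = 0.040), Cdt1 (1.45, SE 0.38, 0.048) and Pola2, the regulatory subunit of polymerase alpha (1.29, SE 0.26, 0.013). At an unadjusted p below 0.05 it was 27 members, beside 3058 of all 16241 genes. The TP1 count depended on single tumors, as it was 30 without HGS2 TP1 control replicate 1, the tumor with the highest replication level, and 9 without HGS2 TP1 treated replicate 3. It was 1 without HGS2 TP1 control replicate 3, HGS2 TP1 treated replicate 1, any 1 of the 3 60577 TP1 controls, or 60577 TP1 treated replicate 1 or 3. How many of all genes passed in these fits was not recorded.

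Untreated tumors of the models differed as well. Averaged over TP1 and TP2, 27 members were lower and 1 was higher in HGS2 controls than in 60577 controls (background 51.5% called, 23.4% lower and 28.1% higher), with a median of -0.66 beside 0.05 over all genes. Mcm2 was at 175 to 205 CPM in the 6 60577 controls (median 190.0 CPM) and at 26.6 to 105 CPM in the 7 HGS2 controls (median 53.0 CPM), a difference of -1.63 (SE 0.21, log2). Orc1 differed by -1.50 (SE 0.30), Cdt1 by -1.36 (SE 0.19), Mcm7 by -1.28 (SE 0.16) and Mcm6 by -1.16 (SE 0.21). The single member that was higher in HGS2 was Rrm2 (0.88, SE 0.30, edgeR adjusted p = 0.016), at 15.5 to 88.3 CPM against 22.5 to 37.0 CPM, ranges that overlap.

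In the treated tumors of TP3 31 members were higher in HGS2 than in 60577 and none was lower (background 30.4% called, 17.6% higher), with a median difference of 0.95 over the members and 0.01 over all genes. Rrm2 led, with 61.8, 47.2 and 43.8 CPM in the 3 fitted HGS2 tumors and 28.8 CPM in replicate 1, against 3.34 to 5.38 CPM in 60577. Its difference was 3.50 (SE 0.43, edgeR adjusted p = 1.1e-06), followed by Mcm10 (2.42, SE 0.39) and Cdc6 (1.97, SE 0.32). Mcm2 and Mcm4, with differences of 0.68 and 0.60, did not pass.

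The cell lines in culture, given beside the tumors without a test between them, had their highest summed level in 60577. Mcm6 was at 301 and 368 CPM in the 60577 line and at 87.6 and 176 CPM in the HGS2 line, and Pcna at 347 and 342 CPM against 92.4 and 244 CPM. Between the lines 39 of 41 members had a lower mean in HGS2, with a median log2 difference of -0.75 beside -0.03 over all genes. By edgeR 0 members passed (background 18.9% called). At an unadjusted p below 0.05 there were 11 members, beside 4918 of all 13742 genes tested. The lowest adjusted p was 0.058, for Mcm6 (-1.34, SE 0.36). The 2 with a higher mean in HGS2 were Rrm2 (0.65, SE 0.61) and Rpa3 (0.55, SE 0.35), and Rrm2 was at 50.3 and 194 CPM in the HGS2 line against 95.0 and 61.0 CPM. The difference of Rrm2 turned to -0.55 without HGS2 cell line replicate 2.

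The HGS2 libraries differed from each other throughout. The second held more than the first for all 41 members, as for Cdc6 (9.94 and 39.4 CPM), Mcm10 (12.3 and 46.4 CPM) and Uhrf1 (58.5 and 183 CPM), while the 60577 libraries were close, with 284 and 283 CPM of Uhrf1. Fits without 1 cell line library leave a lone library in its line, so no count from them is given. DESeq2 called 7 of 41 members, beside 1946 higher and 1835 lower among all 13742 genes tested. With 2 libraries per line, whose origin in separate cultures is not stated, these values compare libraries.

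The rest of the replication machinery, a list of 59 further genes, fell in most of its parts. In 60577, 40 fell and 1 rose at TP1, 45 fell and 4 rose at TP2 and 47 fell and 3 rose at TP3, with medians of -0.72, -0.98 and -1.04. Of all genes tested 33.3%, 58.4% and 51.4% were called, and 16.2%, 29.2% and 26% were lower. Large falls were seen for Dtl, which directs CDT1 to destruction on chromatin (-1.68, -2.35 and -3.05), Gmnn, the inhibitor of CDT1 (-1.16, -2.12 and -2.30), and Ccne2, a cyclin of the G1 to S transition (-1.76, -2.30 and -2.86).

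The origin recognition complex subunits outside the 41 changed little or did not pass. Orc2 missed the threshold at TP1 (-0.35) and fell by 0.56 at TP2 and by 0.36 at TP3, while Orc3 passed only at TP3 (-0.19, -0.20 and -0.24). Orc4 (-0.13, 0.15 and 0.16) and Orc5 (0.00, 0.13 and 0.17) passed at no time point. In nucleotide supply, Rrm2b, the reductase subunit used outside S phase, did not pass (-0.15, -0.17 and 0.14, log2), and Tk2, the mitochondrial thymidine kinase, rose by 0.47, 0.76 and 0.60 beside the fall of Tk1. Samhd1, which breaks down deoxynucleotides, rose at TP2 and TP3 (0.70 and 0.66), as did Rb1, the repressor of E2F factors (0.57 and 0.69).

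A list of 20 mitosis genes had lower medians than the members, with 20 of 20 lower at each time point in 60577 (16.2%, 29.2% and 26% of all genes) and medians of -1.82, -2.34 and -2.90. The summed level of these genes was 668 to 827 CPM in controls and 71.5 to 112 CPM in TP3 tumors. In controls of HGS2 against 60577 the mitosis genes had a median difference of -0.02 and 1 of 20 passed, against -0.66 and 28 of 41 replication genes. Of all genes tested there, 51.5% were called, 23.4% lower and 28.1% higher. In HGS2 0 of 20 mitosis genes passed at each time point, as did 0% of all genes. The difference between lists was not tested.

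**Figure D5:**
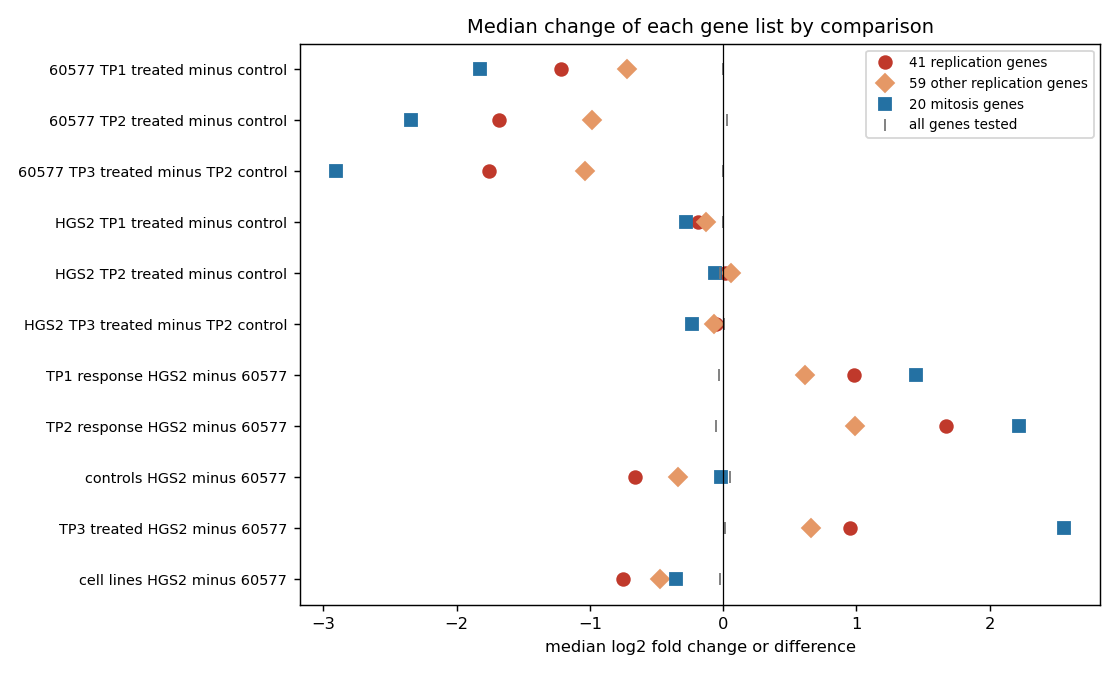
Median log2 fold change or difference of the 41 replication genes, 59 other replication genes and 20 mitosis genes in each comparison, with the median of all genes tested as a tick. In 60577 the mitosis genes have the lowest medians and the other replication genes the highest of the 3 lists, and in controls of HGS2 against 60577 only the 2 replication lists lie away from 0.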

How the data were processed

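RNA-seq was done on omental tumors and cell lines. Per the labels and the study's methods, the authors depleted rRNA, trimmed with Trim Galore 0.6.5, aligned to GRCm38 (mm10) with STAR 2.7.0f and counted with RSEM, and deposited expected counts per gene. The labels name RiboZero and the methods another depletion kit. Expected counts split reads shared by gene copies, and the strand setting of the counter is not given in the sources used here, so reads of opposite-strand neighbors with overlapping exons (Mcm7, Orc6, Cdc45, Rfc4, Tk1 and Fen1 among others) may be included.

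The deposited counts were rounded. Genes that reached 1 CPM in 25% or more of the libraries (16241 in tumors, 13742 in cell lines) were scaled by TMM and compared by the quasi-likelihood method of edgeR 4.0.16 (both sides, p-values adjusted over all of these genes after Benjamini and Hochberg), per model (17 and 16 tumors), in 1 fit of 33 tumors between models, and in the 4 cell line libraries. Levels are CPM with 1 TMM scaling over the 38 libraries, and TPM uses exon-union length. SE is the absolute log2 fold change over the square root of F. Fits were also run on simulated counts drawn independently for each gene, so shifts shared by many genes within a tumor were not covered. Where labels do not name separate animals or cultures, p-values measure the spread between libraries.

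The members and lists were chosen with earlier results of these data known. Genes named by rule were the member of highest mean CPM in each role, the 5 largest changes among those passing in each comparison, members passing against the majority, and members missing the threshold in 60577; other values were chosen after they were seen. Same-numbered 60577 and HGS2 TP2 tumors deviated together (correlations 0.114 to 0.144 and 0.139 to 0.296). Alternatives covered DESeq2 1.42.0, limma-voom 3.58.1, filters, scalings, covariates, a replicate block and leaving out each library. Promoter windows came from RefSeq.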

Additional observations from a re-analysis of the deposited data

Results flagged for a closer look

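In groups of 4 tumors, 4 of 80 values of the named members and their sum lay far from the other 3 of their group, and chance flags about 1 in 20. Uhrf1 was at 19.6 CPM in 60577 TP3 treated replicate 4 against 13.8 CPM in each of the other tumors, and this tumor had the highest summed replication level of its group (804 CPM). In HGS2 TP2 control replicate 3, Orc1 (3.57 CPM), Mcm2 (80.8 CPM) and Mcm5 (71.1 CPM) stood above the others, and this tumor had the highest sum of the set (1809.5 CPM) and the most epithelial marker RNA (792 CPM) of its group.

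The response to chemotherapy differed between the models by the test of the difference itself (edgeR). At TP1 it differed for 3 members, where 1.77% of all genes were called. The HGS2 minus 60577 differences in log2 fold change were 1.74 for Mcm6, 1.45 for Cdt1 and 1.29 for Pola2. At TP2 it differed for 34 members, where 10.3% of all genes were called. The largest were Mcm6 (2.55), Cdc6 (2.49), Uhrf1 (2.45), Orc1 (2.28) and Cdt1 (2.23). Of the 7 epithelial markers tested, 0 passed at either time point. Missing the threshold does not show that their responses were alike in the 2 models.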

How the results depend on the processing

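In 60577 the counts of members called were 37 to 39 (TP1), 40 (TP2) and 40 to 41 (TP3) over the fits that left out 1 tumor, and all other alternatives except the epithelial covariate stayed within 1.5 times the counts reported. With that covariate they were 6, 0 and 1, with 7 for TP1 to TP2 and 13 for the TP1 difference between models. Under it Gins4 turned to 0.23, 0.075 and 0.44 and Rpa3 to 0.27, 0.092 and 1.07 at TP1, TP2 and TP3, and Rfc1, Rfc4 and Rpa1 to 0.12, 0.31 and 0.015 at TP3. The cause was not tested.

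The counts between treated time points were the least stable. TP1 to TP2 gave 5 to 20 with 1 tumor left out, 2 with a log2 limit of 1, 8 with the replicate block, 0 with both models in 1 fit, 3 with only the groups compared and 9 with the 7SL covariate. TP2 to TP3 gave 11 to 20 with 1 tumor left out, 2 with the limit of 1, 10 with no filter, 5 with both models in 1 fit, 11 with only the groups compared and 0 with the 7SL covariate, under which 15 of all genes passed and the members' median was -0.39.

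The TP1 difference between models gave 1 to 30 with 1 tumor left out, where counts over all genes were not recorded. It gave 1 with no filter, 9 with DESeq2, 1 with all 34 tumors and 0 with only the groups compared. The TP2 difference gave 25 to 33, and 16 with the 7SL covariate, under which 360 of all genes passed against 1678. Controls gave 26 to 33 and TP3 treated tumors 27 to 29, or 8 and 20 with the limit of 1. The cell lines gave 0 to 36 with 1 library left out, 24 with no filter, and 7 each with DESeq2, with the replicate block, and with a length and GC offset beside that block. Their same-numbered libraries correlated at -0.15, and the crossed pairing gave 0. All HGS2 counts and the 60577 control count stayed at 0 when 1 tumor was left out. With 1 library left out, the HGS2 TP2 value of Mcm6 ran from -0.19 to 0.083 (the latter without control replicate 3), and that of Rrm2 between lines from -0.55 (without HGS2 replicate 2) to 1.31.

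The replicate block changed no other count by over 1.5 times. Same-numbered 60577 TP3 treated and TP2 control tumors also deviated together (correlations 0.060 to 0.176). Correlations had both signs in 60577 at TP1 (-0.052 to 0.131) and in HGS2 at TP1 (-0.279 to 0.087) and TP3 (-0.103 to 0.297). The 7SL covariate, the limit on acinar markers and the crossed pairing were chosen after seeing the data. Orc1, at 0 to 7.19 CPM in tumors, rests on few reads, and HGS2 errors are wide.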
